A study of Mus musculus with 2 samples.

Results

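The ligands and receptors of the EGF (epidermal growth factor) family were followed through the cell classes of mouse dorsal skin. The members were chosen by name: 6 ligands that signal through the EGF receptor, Epgn (epigen), Areg (amphiregulin), Ereg (epiregulin), Hbegf (heparin-binding EGF-like growth factor), Tgfa (transforming growth factor alpha) and Btc (betacellulin), and 3 receptors, Egfr, Erbb2 and Erbb3. Together they were 9 of the 19059 genes in the count tables, and all 9 had counts. The study compared wildtype skin with skin lacking epiplakin (Eppk1), a cytoskeletal linker protein of the plakin family that binds keratin filaments. Single cells from punch biopsies of dorsal skin of 1 mouse per genotype were profiled with a probe-based single-cell RNA assay on fixed cells. The wildtype group was 1 C57BL/6J mouse, and the Eppk1-/- group was 1 Eppk1 knockout mouse backcrossed to C57BL/6J, both without treatment. Their age and sex were not given in the sources used here. With 1 library per genotype, no difference between the genotypes could be tested: genotype, mouse, punch and library cannot be told apart, and each interval given is an exact 95% interval that covers counting error only.

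EGF family ligands are made as membrane-bound precursors, and proteases of the ADAM family release them from the cell surface. Ligand binding makes the receptors pair, and the pairs switch on the RAS and MAP kinase cascade, PI3 kinase and STAT3. ERBB2 has no known ligand of its own and ERBB3 has little kinase activity, so both signal mainly as partners of other receptors. In epidermis the pathway is known for keeping keratinocytes growing and for holding back their terminal differentiation, and several of its ligands are induced by wounding and inflammation.

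After filters on depth, gene number and mitochondrial reads, 8875 wildtype and 8617 Eppk1-/- cells were kept, with a median of 4963 and 5006 UMIs (unique molecular identifiers, 1 per captured molecule) per cell. The Eppk1 label was checked first. In keratinocytes Eppk1 had 3658 UMIs per 1000000 (CPM) in the wildtype library and 996 CPM in the library labelled Eppk1-/-, a log2 ratio of -1.88. It was lower in basal cells (1217 against 66.9 CPM), spinous cells (2600 against 193 CPM) and granular cells (6985 against 3241 CPM) but higher in the 51 and 35 late cells (100 against 528 CPM). Where the Eppk1 probes lie relative to the deletion was not given in the sources used here. The filtered cells shared 1141 droplet barcodes between the libraries, as libraries pooled before droplet formation can. The upper limit of 45000 UMIs removed 265 wildtype and 185 Eppk1-/- cells, in which Ereg stood at 1810 and 1308 CPM.

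Cells were clustered without the 9 members and without the other genes of the pathway, and clusters were named from marker genes as basal-like, spinous-like, granular-like and so on. The suffix is dropped from here on. Interfollicular keratinocytes comprised basal cells (1661 wildtype and 1310 Eppk1-/-), proliferating cells (135 and 123), spinous cells (977 and 902), granular cells (371 and 208) and late cells led by Lce genes of the cornified envelope (51 and 35). The hair follicle was represented by infundibulum (561 and 391 cells), outer sheath and isthmus (946 and 641) and bulge and germ (671 and 368), beside the sebaceous gland (146 and 130). Fibroblasts, endothelium, immune classes, melanocytes, skeletal muscle and unnamed clusters made up the rest. A cluster of 572 and 1167 cells led by Pla1a, Efhd1 and Ptx3 held 4 of the 7 fibroblast markers. It is called the Pla1a cluster because it could not be named. Other clusters among the epithelial cells stayed unnamed and were not compared. They were led by Krt75 (62 and 12 cells), Col1a1 and Col1a2 (51 and 58), H2-Ab1 (29 and 25) and Igfbp5 (0 and 54). Levels are CPM of all non-mitochondrial UMIs of a class. In a probe-based assay the count of a gene also depends on its probes, so levels are compared between classes and libraries for 1 gene, not between genes.

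The genes of 4 ligands lie near one another. On the GRCm38 build, Epgn (chr5:91027464-91035215), Ereg (chr5:91074622-91093646) and Areg (chr5:91139599-91148432) are on the plus strand and Btc (chr5:91357261-91402994) on the minus strand, within 375531 bases of chromosome 5. Tgfa is at chr6:86195223-86275719, Egfr at chr11:16752203-16918158, Erbb2 at chr11:98412470-98437716 and Erbb3 at chr10:128567523-128589652. The promoters of Epgn, Areg and Btc are shown because these neighbours had their highest levels in different cell classes. Sequences are RefSeq promoter windows of GRCm38.p6, read in the direction of transcription and ending at the last base before the annotated start: chr5:91027267-91027463 for Epgn (197 bases, since the annotated starts differ), chr5:91139349-91139598 for Areg and chr5:91402995-91403244 for Btc. Capitals mark matches to TATAAA, the TATA box core, and to TGACGTCA, the cAMP response element.
Epgn: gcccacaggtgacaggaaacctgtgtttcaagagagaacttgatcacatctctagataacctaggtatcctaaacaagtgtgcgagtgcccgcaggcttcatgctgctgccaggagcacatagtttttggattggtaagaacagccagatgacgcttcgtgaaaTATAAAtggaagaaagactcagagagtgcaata
Areg: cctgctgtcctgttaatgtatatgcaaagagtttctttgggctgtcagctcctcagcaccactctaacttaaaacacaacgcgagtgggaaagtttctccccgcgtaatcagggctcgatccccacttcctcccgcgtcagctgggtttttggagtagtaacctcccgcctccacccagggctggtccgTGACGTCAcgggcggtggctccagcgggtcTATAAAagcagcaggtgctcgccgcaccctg
Btc: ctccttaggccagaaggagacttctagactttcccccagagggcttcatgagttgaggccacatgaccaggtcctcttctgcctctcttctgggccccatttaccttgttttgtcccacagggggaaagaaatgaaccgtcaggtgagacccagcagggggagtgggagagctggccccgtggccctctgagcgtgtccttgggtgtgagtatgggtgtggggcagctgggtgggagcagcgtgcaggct
TGACTCA, the AP-1 element, was searched as well, on both strands like the others, and no match of 1 string overlapped that of another in these windows. The Epgn window held 1 TATAAA, beginning 33 bases before the start. The Areg window held 1 TATAAA at 31 bases and 1 TGACGTCA at 61 bases. None of the 3 strings was in the Btc window, nor was TGACTCA in any of the 3 windows. Among 32851 RefSeq promoter windows, which have 250 bases before the start, 12.4% held TATAAA, 1.55% TGACGTCA and 4.46% TGACTCA. Promoters of Ereg and Erbb3 are not shown.

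Epgn, the ligand epigen, was a gene of basal keratinocytes in both libraries. Its level was 3948 CPM in wildtype basal cells (3903 to 3994) and 4549 CPM in Eppk1-/- basal cells (4492 to 4607), and it was one of the 10 leading genes of a basal cluster although it had no part in the clustering. It was next highest in proliferating cells, at 2236 and 2780 CPM, then fell off with stage to 867 and 1142 CPM in spinous cells and to 59.2 and 74.4 CPM in granular cells. The intervals of these 4 stages did not overlap in either library. At clustering resolution 1 the spinous level was 257 and 494 CPM and the granular level 126 and 168 CPM. Basal cells held 64.9% of the wildtype and 64.4% of the Eppk1-/- UMIs of Epgn over all kept cells. Of the wildtype basal cells 67.9% had a UMI of Epgn, as did 78.0% of the Eppk1-/- basal cells. After every cell was thinned to 2000 UMIs, which left 7753 wildtype and 7495 Eppk1-/- cells, the share was 62.8% and 74.9%. Monocytes had 2.14% and 1.03% (median 5102.5 and 4941 UMIs before thinning, 4262 and 4046.5 in basal cells). Here and for each member below, the class set against a thinned share was picked as the lowest among the larger classes. Dendritic and Langerhans cells had 7.04% and 7.55% for Epgn, and macrophages 6.4% and 2.08%.

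Btc, encoding betacellulin, had the opposite arrangement and was a gene of the outermost keratinocytes. It was near the detection limit in basal cells (15 UMIs, 2.06 CPM, and 14 UMIs, 2.60 CPM) and in spinous cells (15 and 7 UMIs), reached 270 and 530 CPM in granular cells (754 and 1205 CPM at clustering resolution 1) and 1993 and 2248 CPM in late cells. Late cells were few, yet with granular cells they held most of it: granular cells held 52.2% and 57.0% of the UMIs of Btc and late cells 39.6% and 33.6%. Between late and granular cells the log2 ratio was 2.89 in wildtype (2.80 to 2.97) and 2.09 in Eppk1-/- skin (1.99 to 2.18). Of late cells, 82.4% and 94.3% had a UMI of Btc, or 56.0% and 77.1% after thinning, against 0 of 142 and 0 of 106 thinned dendritic cells (exact upper limits of 2.56% and 3.42%), whose median was 5051 and 5286 UMIs before thinning. Within granular cells it was concentrated: the 10 cells with the most Btc held 60.8% of the wildtype and 74.5% of the Eppk1-/- UMIs.

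Ereg, encoding epiregulin, was found in the granular layer and in the infundibulum, the upper part of the follicle. Granular cells stood at 1409 CPM in wildtype (1385 to 1434) and 1491 CPM in Eppk1-/- skin (1456 to 1526), and infundibulum at 1434 CPM (1398 to 1470) and 845 CPM (811 to 879). The 2 classes overlapped in the wildtype library and were separate in the Eppk1-/- library. This rests on the clustering: at resolution 1 the infundibulum had 179 and 64.9 CPM, spinous cells 188.5 and 91.7 CPM and granular cells 4596 and 4042 CPM, so that granular cells were highest in both libraries. Among the named classes with at least 50 cells in each library the next highest was at 24.8 (wildtype) and 10.9 CPM (Eppk1-/-). In late cells Ereg was lower again, at 376 and 293 CPM, so that along the stages it peaked 1 step before Btc. A UMI of Ereg was seen in 64.4% and 63.0% of granular cells, or 43.4% and 45.2% after thinning, against 0.746% and 0.806% of sebaceous cells. Granular cells had a median of 23286 and 22058 UMIs, against 6200 and 12926 in the sebaceous gland, so the thinned shares are the ones to compare.

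Areg, encoding amphiregulin, had its highest level outside the epithelium. T and NK cells, with a median of 1834 and 1712 UMIs per cell, stood at 690.5 CPM in wildtype (620 to 767) and 842 CPM in Eppk1-/- skin (756 to 935). Infundibulum followed at 269 and 232 CPM and granular cells at 185 and 188 CPM, while basal cells had 10.3 and 11.2 CPM. The intervals of these first 3 classes did not overlap in either library. Within the T and NK class, Areg was higher in the cluster led by Trdc and Cd3e (1120 CPM in wildtype and 2305 CPM in Eppk1-/- skin) than in the cluster led by Icos and Il2ra (322 and 108 CPM). It rested on few cells, since 65 of 223 wildtype and 50 of 199 Eppk1-/- cells had a UMI and the 10 cells with the most held 42.8% and 66.6% of them. After thinning, 32.6% and 29.0% of T and NK cells had a UMI of Areg, against 0.364% and 0.0896% of the Pla1a cluster (median 9563.5 and 7113 UMIs). Of all Areg UMIs, granular cells held 34.6% and 29.3% and T and NK cells 7.2% and 11.7%. The summed UMIs of all genes were 9010198 and 4693589 in granular cells and 501113 and 415576 in T and NK cells.

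Hbegf, the heparin-binding ligand (chr18:36504927-36515805, minus strand), was found in macrophages as well as in epithelial classes. The other immune classes had 21.5 to 33.9 CPM in wildtype and 10.9 to 40.1 CPM in Eppk1-/- skin. Macrophages stood at 310 CPM in wildtype (295 to 326) and 357 CPM in Eppk1-/- skin (340 to 376), infundibulum at 308 and 278 CPM, and bulge and germ at 305 and 306 CPM. These 3 overlapped in the wildtype library, whereas macrophages stood above the other two in the Eppk1-/- library. Granular cells followed with 232 and 184 CPM, outer sheath with 208 and 257 CPM, and basal cells had 108 and 107 CPM. Thinned shares were 32.8% and 36% of macrophages and 31.5% and 33.0% of bulge and germ cells (52.2% and 43.5%, and 39.5% and 41.6%, before thinning), against 4.55% and 4.03% of the Pla1a cluster.

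Tgfa, encoding TGF-alpha, was highest in late cells, at 265 CPM in wildtype (233 to 300) and 299 CPM in Eppk1-/- skin (259 to 344). Infundibulum followed with 164 and 109 CPM and basal cells with 108 and 78.3 CPM. Between basal, spinous and granular cells it ranged from 60.8 to 108 CPM in wildtype and from 50.9 to 78.3 CPM in Eppk1-/- skin. At clustering resolution 1 the range was wider, with 36.2 and 33.5 CPM in spinous and 171 and 174 CPM in granular cells. It was higher in late than in granular cells by a log2 ratio of 2.12 and 2.08. The thinned share in late cells was 36% and 45.7% (78.4% and 88.6% before thinning), against 0.545% and 0.448% of the Pla1a cluster.

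**Figure D1:**
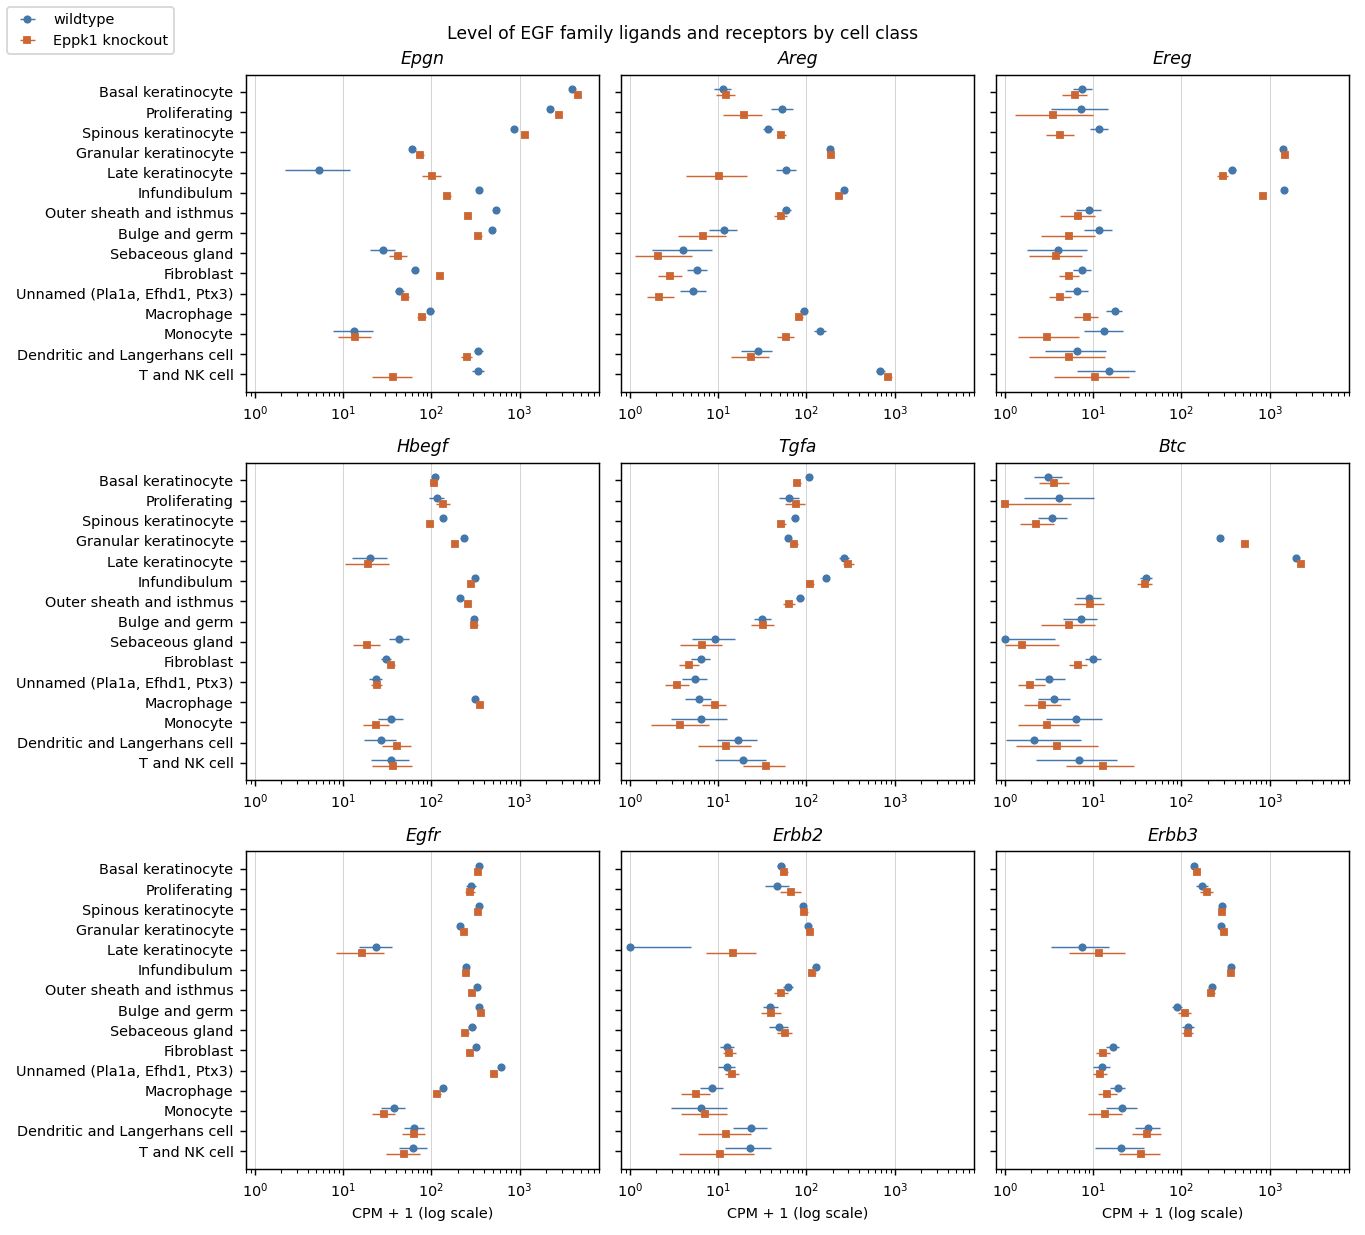
Level of each of the 9 members in the main cell classes (CPM + 1, log axis), with 1 point per library and exact 95% Poisson intervals that cover counting error only. Epgn is highest in basal cells (3948 and 4549 CPM), Areg in T and NK cells (690.5 and 842 CPM), and Egfr in the Pla1a cluster (621 and 517 CPM), drawn as unnamed (Pla1a, Efhd1, Ptx3).

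Egfr, the receptor that binds all 6 ligands, was found in epithelium and in fibroblasts alike. Its highest level was in the Pla1a cluster, at 621 CPM in wildtype (601 to 641) and 517 CPM in Eppk1-/- skin (502 to 533). Basal cells (349 and 339 CPM), bulge and germ (348 and 361 CPM) and spinous cells (348 and 337 CPM) came next, and their intervals overlapped one another in both libraries. Fibroblasts (321 and 272 CPM) and the sebaceous gland (290 and 242 CPM) were in the same range. After thinning and as a mean over cells, the sebaceous gland was the highest named class in both libraries. Granular cells had 211 and 236 CPM, and late cells 22.7 and 15.3 CPM. Over all kept cells, the Pla1a cluster and fibroblasts together held 35.0% of the wildtype and 45.8% of the Eppk1-/- UMIs of Egfr. Thinned shares were 62.4% and 63.4% of the Pla1a cluster, 53.7% and 51.6% of sebaceous cells and 45.4% and 44.9% of basal cells (94.2% and 90.7%, 89.7% and 88.5%, and 63.5% and 62.8% before thinning), against 5.71% and 4.64% of monocytes.

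Erbb3, the partner receptor with little kinase activity, was highest in the infundibulum and in spinous and granular keratinocytes. Infundibulum stood at 359 CPM in wildtype (342 to 378) and 360 CPM in Eppk1-/- skin (338 to 382). Spinous (286 and 289 CPM) and granular cells (283 and 303 CPM) overlapped each other just under it, and basal cells had 138 and 150 CPM. The follicle was not uniform: outer sheath and isthmus had 223 and 218 CPM. Bulge and germ had 87.3 and 108 CPM, below basal cells in both libraries. A UMI of Erbb3 was seen in 81.8% and 80.3% of infundibulum cells, or 52.8% and 50% after thinning, against 1.64% and 1.61% of the Pla1a cluster.

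Erbb2, the receptor without a known ligand, followed the same order at 126 and 114 CPM in infundibulum, 104 and 108 CPM in granular cells, 90.8 and 94.0 CPM in spinous cells and 50.6 and 55.0 CPM in basal cells. Neighbours in this order overlapped, except that infundibulum stood apart from granular cells in the wildtype library and spinous from basal cells in both. In macrophages Erbb2 was at 7.44 and 4.64 CPM. Thinned shares were 20.8% and 21.9% of infundibulum cells (51.0% and 49.4% before thinning), against 1.4% and 0.694% of macrophages.

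Set within a library, suprabasal cells (spinous and granular) against basal cells, 6 of the 9 members were past a log2 ratio of 0.5 in the same direction in both libraries. The background was high: 46.4% of the 9145 genes with at least 50 UMIs in each library did the same, 21.1% of them higher and 25.3% lower. Members higher in suprabasal cells were Ereg (6.98 in wildtype and 7.01 in Eppk1-/- skin, log2), Btc (6.24 and 6.49), Areg (3.59 and 3.33), Erbb3 (1.05 and 0.98) and Erbb2 (0.96 and 0.86). Epgn was lower (-3.35 and -2.79), and Egfr (-0.39 and -0.22), Hbegf (0.83 and 0.34) and Tgfa (-0.71 and -0.38) were not past 0.5 in both. Granular cells held 9010198 of the 15177992 suprabasal UMIs of all genes in wildtype and 4693589 of 10310918 in Eppk1-/- skin. For Ereg and Btc the rise lay in the granular cells. Spinous cells had 10.7 and 3.20 CPM of Ereg, against 6.58 and 5.21 CPM in basal cells. Of Btc they had 2.43 and 1.25 CPM, against 2.06 and 2.60 CPM. The median over the members was 0.96 and 0.86, beside -0.12 and -0.10 over all genes. Scaling by TMM (trimmed mean of M values) in place of class totals would shift each of these ratios by 0.21 in wildtype and 0.19 in Eppk1-/- skin.

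**Figure D2:**
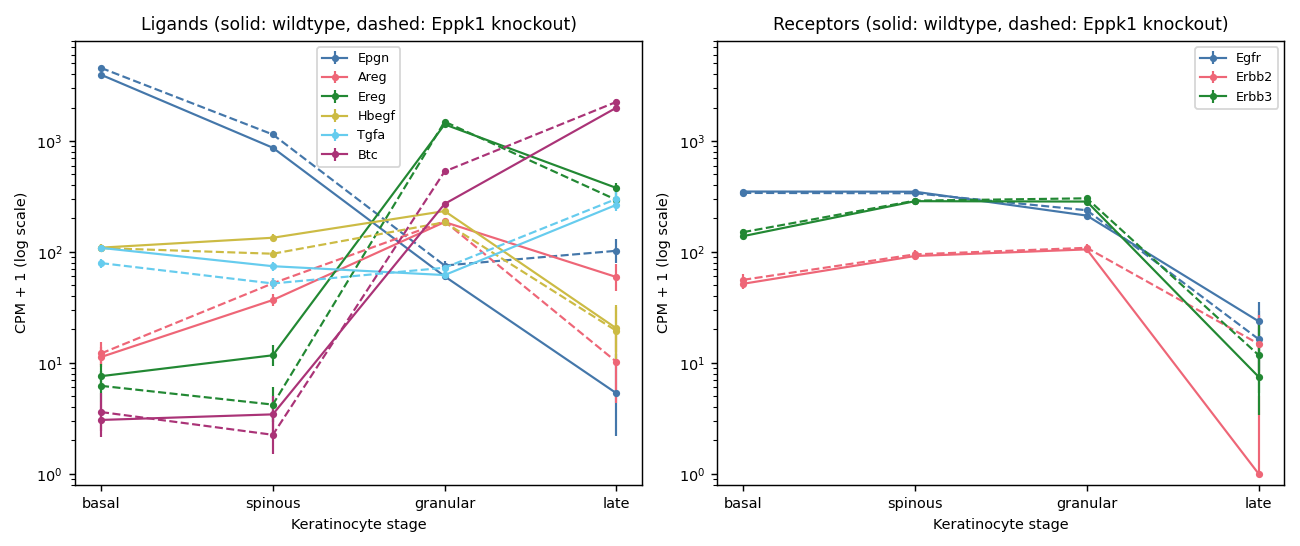
Level of each member (CPM + 1, log axis) along the interfollicular keratinocyte classes from basal to late cells, with 1 line per library and exact 95% Poisson intervals. Epgn goes down from 3948 to 59.2 CPM between wildtype basal and granular cells while Btc goes up from 2.06 to 270 CPM, and the receptors are lowest in late cells.

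The late cells thus had Btc and Tgfa at their highest levels and the receptors at their lowest among the stages. From granular to late cells Egfr was lower by a log2 ratio of -3.19 in wildtype and -3.88 in Eppk1-/- skin and Erbb3 by -5.33 and -4.72, while Btc and Tgfa were higher. Hbegf (19.4 and 18.4 CPM in late cells), Areg (58.3 and 9.21 CPM) and Ereg (376 and 293 CPM) were lower than in granular cells. Epgn was lower in wildtype only (4.32 and 101 CPM). In thinned late cells, 68.0% of wildtype and 82.9% of Eppk1-/- cells had a UMI of at least 1 ligand and 4.0% and 5.71% a UMI of at least 1 receptor. Such shares count 6 ligand genes and 3 receptor genes and depend on their probes, so each is compared between classes only. The sebaceous gland had fewer thinned cells with a ligand than the late class (14.2% and 8.06%) and more with a receptor (64.9% and 60.5%). Nrg4, a further ligand of the family, was not among the 6 counted. It was seen in 17.9% and 19.4% of thinned sebaceous cells. The Pla1a cluster resembled the sebaceous gland, with 8.55% and 7.35% for the 6 ligands and 63.3% and 65.1% for receptors. In basal cells both were common: 75% and 82.8% had a ligand, 63.6% and 61.9% a receptor, and 48.1% and 51.2% had both. Epgn alone accounted for 62.8% and 74.9% of basal cells, so the ligand share there was mostly Epgn.

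**Figure D3:**
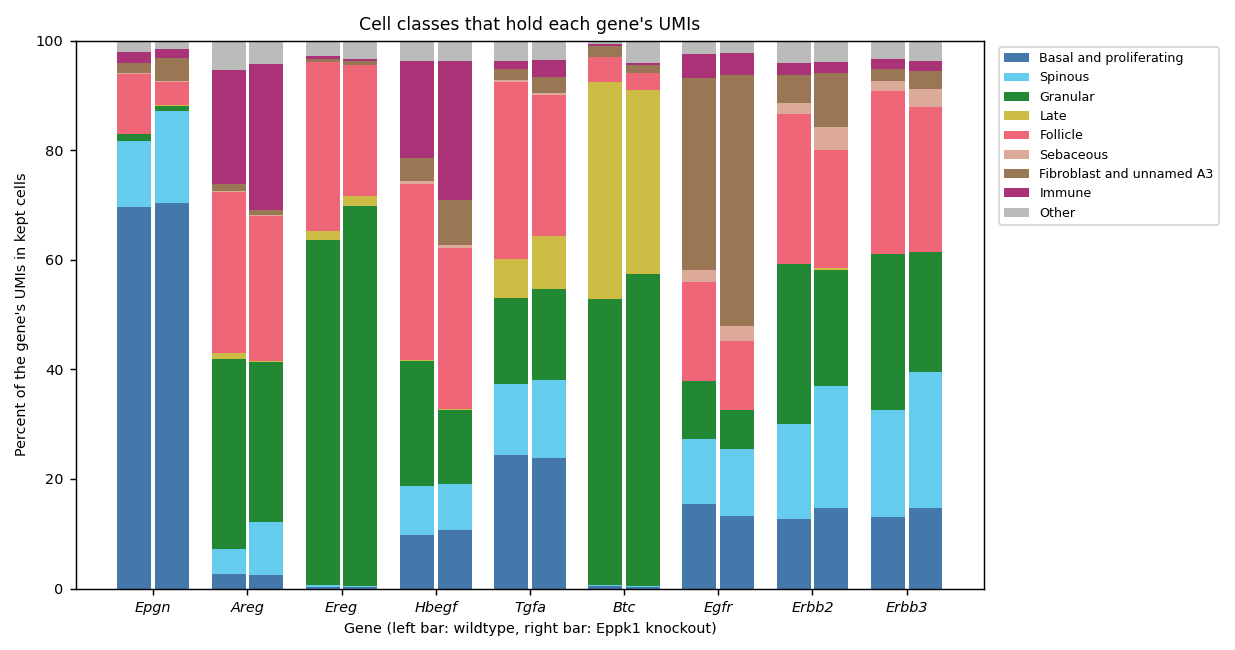
Share of each member's UMIs (percent of its UMIs over all kept cells) that came from each group of cell classes, with 1 bar per gene and library. Basal and proliferating cells hold 69.7% and 70.3% of Epgn, granular cells 63.0% and 69.3% of Ereg, and fibroblasts with the Pla1a cluster 35.0% and 45.8% of Egfr.

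The genes whose pattern was most like each member were found by Pearson correlation of log2(CPM + 1) across 15 classes, ranked in the wildtype library among 11223 genes. The classes of a library share its depth and free RNA, and these values are descriptions. Late cells, 35 in the Eppk1-/- library, were too few to be among the 15 classes. Their levels of Btc and Tgfa, the highest of both genes, have no part here. Ereg went with genes of the cornifying layer, Cnfn (r = 0.978 in wildtype and 0.93 in Eppk1-/- skin), Flg (0.977 and 0.925), which encodes filaggrin, and Crct1 (0.966 and 0.909). Btc went with Serpina12 (0.931 and 0.805) and Hal (0.9 and 0.794), the last encoding the histidase that makes urocanic acid in the epidermis. For Tgfa they were Slc25a48 (0.973 and 0.863), Pard6b (0.972 and 0.897) and Epha4 (0.97 and 0.886).

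Epgn was most like Bag5 (0.939 and 0.779), Pkp4 (0.927 and 0.532) and Mark3 (0.915 and 0.773). Areg was like Inpp4a (0.814 and 0.606), Cnn2 (0.809 and 0.751) and Gnb2 (0.807 and 0.543), and Hbegf like Rubcn (0.857 and 0.734), Snx16 (0.846 and 0.801) and Serpinb8 (0.842 and 0.787), the lowest values of the 9 members in the wildtype library. Of the receptors, Erbb3 went with Lgals7 (0.979 and 0.982), the epithelial galectin, Fam83b (0.973 and 0.959) and Rapgefl1 (0.967 and 0.928). Erbb2 went with Epb41l5 (0.975 and 0.867), Pacsin3 (0.965 and 0.791) and Pou2f3 (0.962 and 0.931), and Egfr with Npas2 (0.944 and 0.838), Fat1 (0.909 and 0.873) and Nfix (0.901 and 0.899). Among the members themselves the highest wildtype values were Tgfa with Erbb2 (0.919), Ereg with Btc (0.862) and Erbb2 with Erbb3 (0.813). In the Eppk1-/- library these pairs had 0.672, 0.738 and 0.94, the last being the highest there.

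To compare the genotypes, UMIs were summed over all interfollicular keratinocytes, 3195 wildtype and 2578 Eppk1-/- cells. None of the 9 members was past a log2 ratio of 0.5 (Eppk1-/- over wildtype) in either direction, where 7.76% of 10588 genes were, 3.44% higher and 4.33% lower. Epgn was higher in Eppk1-/- keratinocytes, at 1956 against 1512 CPM, a log2 ratio of 0.37 (0.35 to 0.39). Btc was higher too, at 232 against 177 CPM, a log2 ratio of 0.39 (0.33 to 0.45). The other ligands were lower: Ereg at 422 against 540.5 CPM (-0.36, -0.40 to -0.32), Hbegf at 122 against 157 CPM (-0.36, -0.44 to -0.29), Areg at 72.8 against 84.8 CPM (-0.22, -0.32 to -0.12) and Tgfa at 75.5 against 85.8 CPM (-0.18, -0.29 to -0.08). The 6 ligands summed gave 2880 against 2557 CPM (0.17, 0.16 to 0.19), a sum carried by Epgn.

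The receptors were close between the genotypes, with Egfr at 295 against 283 CPM (0.06, 0.01 to 0.11), Erbb2 at 81.2 against 78.6 CPM (0.05, -0.05 to 0.15) and Erbb3 at 234 against 225 CPM (0.05, -0.01 to 0.11). Their sum was 610 against 586.5 CPM (0.06, 0.02 to 0.09). The median over the members was 0.05, beside 0.01 over all genes. The classes made up different shares of the keratinocytes, granular cells being 371 of 3195 in wildtype and 208 of 2578 in Eppk1-/- skin. Areg, Ereg, Hbegf and Btc are higher in granular than in basal cells. Of these, Btc was higher in Eppk1-/- keratinocytes and the others lower. With the clusters of both libraries weighted by their wildtype shares, Areg (0.03) and Ereg (0.07) changed sign and Btc passed the threshold (0.68). After thinning, Tgfa passed it (-0.58). Hbegf stayed lower under all alternative settings (-0.38 to -0.18).

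Within the stages, the Epgn difference had the same sign in basal cells (0.20, 0.18 to 0.23), proliferating cells (0.31, 0.23 to 0.40), spinous cells (0.40, 0.35 to 0.45) and granular cells (0.33, 0.13 to 0.53), none of them past 0.5. It was past 0.5 in spinous cells at clustering resolution 1 (0.94) and in granular cells as a mean over cells (0.75). In late cells Epgn stood at 4 and 66 UMIs, the latter in 3 cells, 1 of which had 53. In basal cells 0 of the 8 members with at least 50 UMIs were past 0.5, where 8.1% of genes were, and Tgfa came nearest with 108 against 78.3 CPM (-0.46, -0.63 to -0.29), past 0.5 after thinning (-0.63). In spinous cells Areg was higher in the Eppk1-/- library (51.1 against 35.8 CPM, 0.51) and Tgfa (50.9 against 73.3 CPM, -0.53) and Ereg (18 against 66 UMIs, -1.71) lower, where 6.9% of genes were past 0.5 in either direction. At clustering resolution 1 the Areg value there changed sign (-0.19) and Tgfa was not past 0.5 (-0.11), whereas Hbegf, at -0.48, was (-0.67).

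In granular cells Btc was past 0.5 and the other 8 members were not, where 8.55% of genes were. It stood at 530 CPM in Eppk1-/- and 270 CPM in wildtype granular cells, a log2 ratio of 0.97 (0.89 to 1.06), which was 0.49 after thinning. The summed level of the Late keratinocyte markers, the Lce genes, moved with it inside the granular class, at 3179 CPM in Eppk1-/- and 1804 CPM in wildtype cells with none of the 9 measured at 0, and the Granular keratinocyte markers summed to 32930 and 23590 CPM. Their part in the Btc value was not tested. The cells left out above the upper UMI limit, which were in no class, had slightly less Btc in the Eppk1-/- library. Btc there was at 258.4 CPM in Eppk1-/- (249.5 to 267.6) and 279.4 CPM in wildtype cells (271.5 to 287.5). These cells held 3192 and 4726 UMIs of Btc, against 2486 and 2430 in the granular class. In late cells Btc was at 2248 against 1993 CPM (0.17, 0.07 to 0.27). The sum of the ligands in granular cells gave 0.20 (0.16 to 0.23) and that of the receptors 0.11 (0.05 to 0.18).

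The follicle went the other way for Epgn. In the infundibulum it stood at 149 CPM in Eppk1-/- and 344 CPM in wildtype cells (-1.20, -1.37 to -1.05), in the outer sheath and isthmus at 262 against 543 CPM (-1.05, -1.18 to -0.93) and in bulge and germ at 338 against 482 CPM (-0.51, -0.67 to -0.36). The opposite signs in interfollicular and follicular keratinocytes were not tested against each other. Both outer sheath clusters had less of it in the Eppk1-/- library, at 350 against 732 CPM in the cluster led by Ccl2 and Fst and 27.1 against 166 CPM in the cluster led by Pthlh. In bulge and germ the cluster led by Krt24 had 522 against 617.5 CPM and the cluster led by Fgf18 4.08 against 203 CPM. Few cells carried it: 65 of 391 Eppk1-/- and 148 of 561 wildtype infundibulum cells had a UMI of Epgn, and in bulge and germ the 10 cells with the most held 87.1% and 64.3% of the UMIs. Without the cells of the highest doublet scores the bulge and germ value changed sign (0.20).

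In the infundibulum several ligands were lower in the Eppk1-/- library. Beside Epgn, Ereg was lower in Eppk1-/- cells (845 against 1434 CPM, -0.76, -0.83 to -0.70), as was Tgfa (109 against 164 CPM, -0.59, -0.78 to -0.39), so that 3 of 9 members were lower and none higher, where 4.33% of 8439 genes were lower and 8.21% past 0.5 in either direction. Areg (232 against 269 CPM, -0.211) and Hbegf (278 against 308 CPM, -0.145) were nearer wildtype, and Btc was at 37.5 against 38.9 CPM (-0.05, -0.42 to 0.31). After thinning Hbegf changed sign (0.057). Thinned shares in Eppk1-/- and wildtype cells were 23.3% and 22.9% for Areg and 35.6% and 32.4% for Hbegf. The 6 ligands summed to 1652 against 2558 CPM (-0.63, -0.68 to -0.58). Ereg held 2388 of these 4669 UMIs in Eppk1-/- and 6155 of 10982 in wildtype cells, and its level here depended on the clustering resolution, as given above. The receptors of the same cells did not follow, with Egfr at 244 against 245 CPM, Erbb3 at 360 against 359 CPM and Erbb2 at 114 against 126 CPM. The Infundibulum markers summed to 26070 CPM in Eppk1-/- and 28670 CPM in wildtype cells, and the Granular keratinocyte markers to 18500 against 10320 CPM, a difference whose part in these values was not tested.

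In the outer sheath and isthmus 1 of the 8 members with at least 50 UMIs, Epgn, was past 0.5, where 9.13% of genes were, and Hbegf was at 257 against 208 CPM (0.30, 0.16 to 0.45). In bulge and germ it was 1 of 6, again Epgn, where 11.9% of genes were past 0.5, and Areg, Ereg and Btc had under 50 UMIs. Hbegf there was at 306 against 305 CPM and Egfr at 361 against 348 CPM. Erbb3 there had a log2 ratio of 0.31, which was past 0.5 after thinning (0.83).

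**Figure D4:**
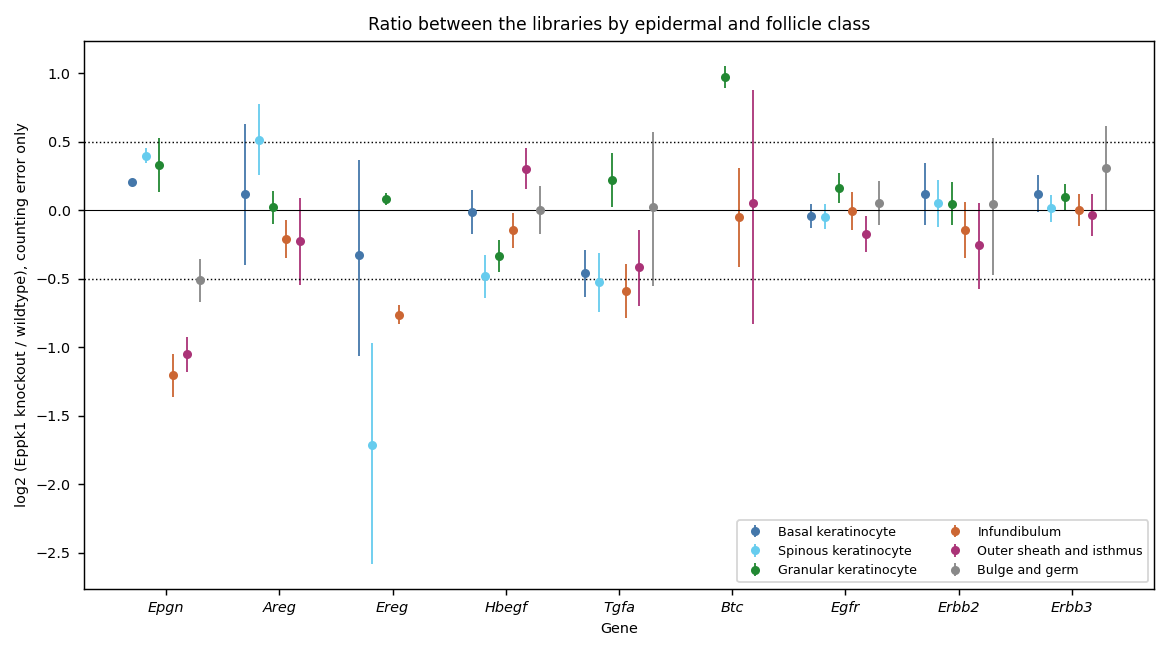
Log2 ratio of Eppk1-/- over wildtype for each member in 3 interfollicular and 3 follicular classes where it had at least 50 UMIs, with exact 95% conditional binomial intervals that cover counting error only and lines at 0.5 in both directions. Epgn lies above 0 in basal (0.20) and spinous cells (0.40) and below 0 in infundibulum (-1.20) and outer sheath (-1.05), and the intervals of Egfr and Erbb3 in infundibulum include 0.

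Outside the epithelium, Hbegf in macrophages was at 357 CPM in Eppk1-/- and 310 CPM in wildtype cells (0.21, 0.10 to 0.31), while the median of all genes in macrophages was -0.11 and 24.4% of genes were past 0.5. Without integration the Hbegf value was past 0.5 (0.65), where a cluster of 229 wildtype and 6 Eppk1-/- cells with macrophage markers stayed unnamed and out of the class. Early response genes moved with Hbegf, summing to 31890 CPM in Eppk1-/- and 23370 CPM in wildtype macrophages, and their part in its value was not tested. Egfr was lower in Eppk1-/- fibroblasts (272 against 321 CPM, -0.24, -0.32 to -0.16), in the Pla1a cluster (517 against 621 CPM, -0.26, -0.33 to -0.20) and in macrophages (117 against 135 CPM, -0.21, -0.38 to -0.04). In the sebaceous gland Egfr was at 242 against 290 CPM (-0.26, -0.46 to -0.06), where the median of all genes was -0.16. Areg in T and NK cells was at 842 against 690.5 CPM (0.29, 0.07 to 0.51). In monocytes it was at 57.2 against 142 CPM, with 87.1% and 94.4% of the UMIs in 10 cells.

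The level of Epgn outside the epithelium differed widely between the libraries in endothelium, mast cells and T and NK cells. It was closer in the Pla1a cluster (49.96 CPM in Eppk1-/- and 42.59 CPM in wildtype cells) and in monocytes (12.79 against 12.44 CPM). Macrophages had 76.62 against 96.11 CPM, and dendritic and Langerhans cells 250.5 against 340.1 CPM. A UMI of Epgn was seen in 89 of 1627 Eppk1-/- and 92 of 1273 wildtype fibroblasts. In endothelium the level was 140 CPM in Eppk1-/- and 976 CPM in wildtype cells, with 100% and 79.7% of it in 10 cells. In mast cells it was 545 against 28.6 CPM, with all UMIs in 9 and 3 cells. The Basal keratinocyte markers moved with it in endothelium (1786 against 5638 CPM) and in T and NK cells (1521 against 2686 CPM, with Epgn at 36.1 against 335 CPM), none of the 6 being at 0, and their part in the Epgn values was not tested. In fibroblasts 5 of the 9 members were past 0.5, where 12.1% of genes were, 4 lower and 1, Epgn, higher. The 4 rested on few UMIs: Areg (18 against 40), Btc (56 against 75), Ereg (42 against 55) and Tgfa (36 against 45). Their levels in fibroblasts lay between 1.86 and 8.94 CPM, and the intervals of Ereg and Tgfa included 0. Epgn there was at 124 against 63.7 CPM (0.95), the basal markers at 850 against 977 CPM, and the value changed sign without the cells of the highest doublet scores (-0.91).

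The other ligands and receptor of the family were looked at beside the members. Nrg1, encoding the ERBB3 and ERBB4 ligand neuregulin 1, was highest in basal cells, at 146 (wildtype) and 88.1 CPM (Eppk1-/-). It was at 22.4 and 15.1 CPM in spinous cells. Outer sheath and isthmus had 80.9 and 69.9 CPM, and its interval overlapped that of basal cells in the Eppk1-/- library. Over all keratinocytes it was at 34.8 against 52.0 CPM, past 0.5 (-0.58). Nrg2 was at 25.6 and 25.7 CPM in basal cells and at 1.46 and 1.25 CPM in spinous cells. Macrophages had 14.3 and 28.6 CPM of Nrg2, and in the Eppk1-/- library their interval overlapped that of basal cells. Nrg4 was a gene of the sebaceous gland, at 146 (wildtype) and 150 CPM (Eppk1-/-), where spinous cells had 0.324 and 0.712 CPM. Egf itself had 5 and 2 UMIs in all keratinocytes, and Erbb4 and Nrg3 had 0, for which the exact upper limits were 0.1515 and 0.2151 CPM.

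Of 57 further genes of the pathway, 51 had at least 50 UMIs in keratinocytes, and 2 of these were past 0.5 between the genotypes, both lower in Eppk1-/- cells: Nrg1 and Gab2 (3.27 against 5.01 CPM, -0.61), an adaptor that recruits PI3 kinase. Of all genes with that minimum, 4.33% were lower past 0.5 and 7.76% past it in either direction. The median over the 51 was 0.003, beside 0.01 over all genes. At a minimum of 10 UMIs 4 were lower past 0.5, where 7.61% of genes were, and with no minimum 5, where 13.6% were. Proteases and transport factors of the ligands (6 measured), feedback inhibitors (16 measured, among them sprouty and dual-specificity phosphatase genes) and transcription targets (6 measured, median -0.12) had no gene past it. Between suprabasal and basal cells 9 of 50 were higher and 17 lower in both libraries, where 21.1% and 25.3% of all genes were. Early response genes, which can rise while tissue is digested, were mostly lower in Eppk1-/- keratinocytes, 16 of 18. Their median was -0.14, beside 0.01 over all genes, and 1 was past 0.5 (Socs3, -0.56), where 7.76% of all genes were. Their summed level was 20050 against 21770 CPM in keratinocytes, and their part in the ligand values was not tested.

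**Figure D5:**
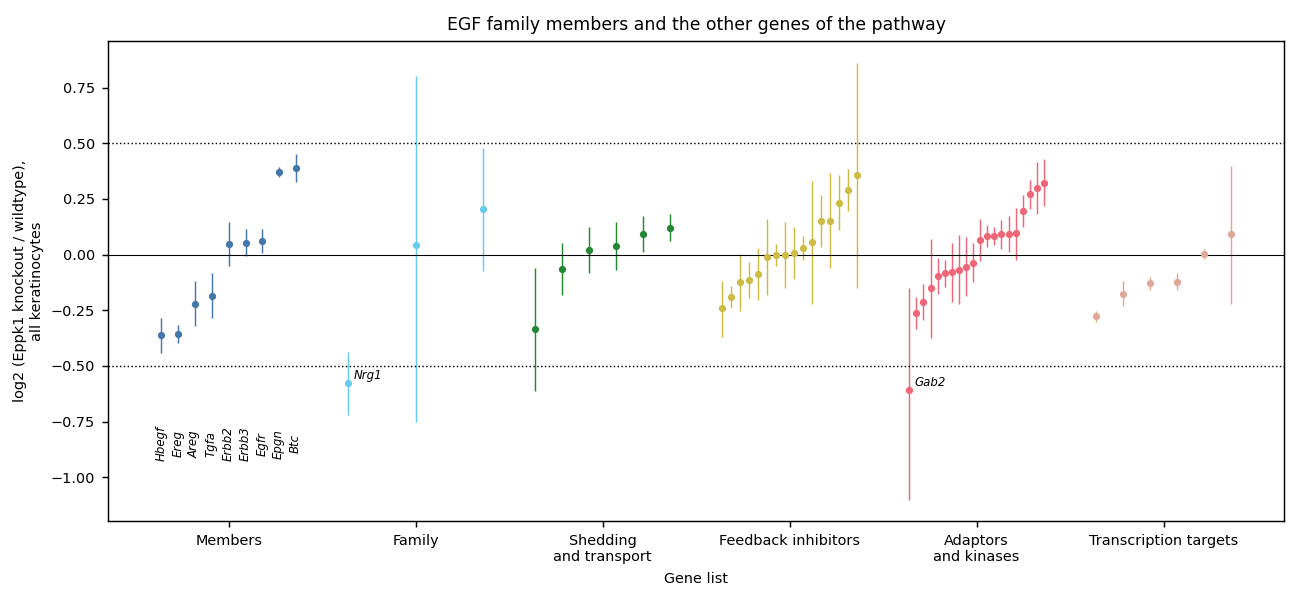
Log2 ratio of Eppk1-/- over wildtype in all interfollicular keratinocytes for the members and the further genes of the pathway, grouped by role and ordered by ratio within each group, with exact 95% conditional binomial intervals and lines at 0.5 in both directions. Of 51 measured pathway genes 2 lie past the lines, Nrg1 (-0.58) and Gab2 (-0.61), where 7.76% of all genes do.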

How the data were processed

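Cells were released from skin by enzymatic digestion with heating, fixed, hybridized with a whole-transcriptome probe set and pooled before droplet formation. The deposited values are raw UMI counts per gene and cell, which the authors made with Cell Ranger (8.0.1 per the file headers) on mm10, with no normalization. Because probes are counted, a level depends on the number and efficiency of a gene's probes. No column of per-sample values was left unmapped (0).

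The study's cell limits were used: no fewer than 200 and no more than 45000 UMIs, between 100 and 7500 genes, and up to 10% of UMIs from mitochondrial genes, which were then removed. The deposited tables held 9179 wildtype and 8811 Eppk1-/- cells with 77638793 and 65118304 UMIs, of which 8875 and 8617 cells were kept. Seurat 5.3.0 (R 4.3.3) log-normalized counts to 10000, took 2000 variable features without the members and the pathway genes, 50 principal components and RPCA integration, and clustered at resolution 0.5. This gave 26 clusters, and epithelial cells were clustered again into 17. Log-normalization replaced the study's SCTransform, and its MAST test was not used here because cells are not replicates. Clusters were named from fixed markers, but the scoring rule was set after the clusters were seen. The spinous cluster rested on 2 of 7 markers at least 2-fold up, with Krt1 as its leading gene. No doublet caller removed cells from the reported values.

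Levels are UMIs summed per class and library as CPM of non-mitochondrial UMIs, with exact 95% Poisson intervals. Shares of cells have exact (Clopper-Pearson) intervals in the tables. Ratios used sums with 0.5 added, exact conditional binomial intervals and genes with at least 50 UMIs over both libraries, and a gene was counted past a log2 ratio of 0.5, the study's threshold. For suprabasal against basal cells the minimum was 50 UMIs in each library. Intervals cover counting error only. For shares, cells were thinned to 2000 UMIs. The class set against the thinned shares of a member was the larger class with the lowest share of it in these same data. Computation used Python 3.11.15, numpy 2.4.6, scipy 1.17.1, pandas 2.3.3, scanpy 1.11.5 and edgeR 4.0.16 (TMM only), and the ratio script was tested on simulated data. The named genes were the 9 members, pathway genes past 0.5 or of the EGF family, the 3 genes most like each member (at least 20 CPM in a class, classes of at least 50 cells in each library) and Eppk1. Of the genes most like Btc, 1 is not reported here. Socs3 and the genes that identify clusters were named beside these after their values were seen. The members and lists were chosen with earlier results of these data known. Alternatives changed the clustering resolution, integration, cell limits, doublet scores, cell weights, depth, scaling, class membership and composition. Gene positions are GENCODE M21 on GRCm38 and promoters RefSeq GRCm38.p6.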

Additional observations from a re-analysis of the deposited data

Results flagged for a closer look

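Outside the cells and classes compared, members appeared in 2 places. A cluster of 54 Eppk1-/- cells that held 0 wildtype cells, led by Igfbp5 and Col1a1, had Epgn at 1454 CPM (162 UMIs, 1239 to 1696) and Btc at 1481 CPM (165 UMIs, 1264 to 1725), although these genes peaked in different keratinocyte classes elsewhere, and the late markers summed to 16020 CPM in it. Cells above the limit of 45000 UMIs, left out of every level, had Ereg at 1810 CPM in 265 wildtype cells (1790 to 1830, median 60840 UMIs) and at 1308 CPM in 185 Eppk1-/- cells (1288 to 1329, median 63252 UMIs).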

How the results depend on the processing

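Of the 9 members, 1 passed a log2 ratio of 0.5 in keratinocytes after thinning (Tgfa, -0.58) and 1 with clusters weighted by wildtype shares (Btc, 0.68), against 0 in the reported values. The ligand sum (0.17) was 0.12 at resolution 1, 0.19 as a mean over cells, 0.20 after thinning, 0.21 with wildtype shares and 0.028 with sebaceous and follicle cells included. The receptor sum (0.06) was -0.007 after thinning and 0.01 with those cells included. Pathway genes lower past 0.5 numbered 4 at a minimum of 10 UMIs and 5 with none, against 2. The cause of these shifts was not tested. Of 65 member ratios between the genotypes that were recomputed under alternatives, 28 had the opposite sign under at least 1. Ratios with few UMIs in a library were not recomputed, so not every ratio past 0.5 was checked. Those left out included Ereg in spinous cells and Areg, Btc, Ereg and Tgfa in fibroblasts. Among the 9 of the 65 past 0.5, Areg in spinous cells changed sign at resolution 1 (-0.19). Without the 5% of cells with the highest doublet scores, Epgn changed sign in bulge and germ (0.20) and in fibroblasts (-0.91). Of these 9, 4 were not past 0.5 under at least 1 alternative (Areg and Tgfa in spinous cells, Btc in granular cells and Epgn in bulge and germ), and 13 others were past it under at least 1. Among the latter, Areg in macrophages went from -0.19 to 0.61 without integration. Between suprabasal and basal cells Hbegf in the Eppk1-/- library was -0.13 as a mean over cells. Over the alternatives, Epgn in the infundibulum ranged from -1.98 to -1.19, Ereg there from -1.46 to -0.72, Tgfa there from -0.79 to -0.52, Epgn in the outer sheath from -1.16 to -0.54 and Btc in granular cells was 0.49 at its lowest, after thinning. Members past 0.5 between suprabasal and basal cells numbered 6 or 7. In both libraries and under all alternatives that could give a value, Epgn, Areg, Btc, Tgfa, Erbb2 and Erbb3 kept their highest named class, while that of Ereg, Hbegf and Egfr changed. No paired analysis was possible because each genotype had 1 library, which also left no library to leave out.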
